A study of Homo sapiens with 16 samples.

Results

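The regions described here are 262 stretches of chromatin at which an anti-MAFG antibody gave a CUT&RUN peak in melanoma cells overexpressing MAFG and none in the same cells overexpressing GFP. They were found by merging all overlapping anti-MAFG peaks of 6 libraries on chromosomes 1 to 22 and X. The regions were thus chosen by the authors' anti-MAFG peak calls: a merged region was kept, and is called gained, where at least 2 of 3 MAFG-cell libraries and 0 of 3 GFP-cell libraries had a peak in it. Of 34229 merged regions, 262 met this rule, which is 0.765%. In 119 of them, 0.348% of the merged regions, all 3 MAFG-cell libraries had a peak, so that the calls of the lines did not overlap. The other 143 had a peak in 2 of the 3. Both shares follow from the rule and were not tested.

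WM164 is an established human melanoma line, and both groups of cells are WM164. One overexpressed GFP and the other overexpressed MAFG; the promoter that drives either transgene, and whether a line is 1 clone, are not given in the sources used here. CUT&RUN directs a nuclease to the antibody's target in permeabilised nuclei and sequences the short fragments it releases. Each line gave 3 anti-MAFG libraries, 3 anti-MITF libraries and 1 library for H3K4me3, and the 14 peak lists of these libraries were used. Nothing states that the replicates came from separate cultures, so the tests measure only the spread between these libraries.

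MAFG is a small MAF protein. Small MAF proteins bind DNA through a basic leucine zipper but lack a transactivation domain, so the outcome at a site depends on the partner. As dimers with cap'n'collar proteins such as NRF2, NFE2 or BACH1 they occupy antioxidant response elements and the longer MAF recognition elements, at genes of iron, haem, thiol and drug metabolism. MITF, the transcription factor that drives pigment cell identity, binds E-box and M-box elements, and H3K4me3 is the histone mark of active promoters.

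The peak lists differed in length before any region was compared. The anti-MAFG libraries of GFP cells held between 14879 and 26221 peaks, and those of MAFG cells between 1836 and 2818. Pileups recovered from the authors' values matched 100% of the anti-MAFG peaks in each library. Their scale factors were 0.484, 0.637 and 0.516 in MAFG-cell replicates 1, 2 and 3, against 0.969, 1 and 1 for the GFP-cell replicates. At the lowest background of a library, the weakest called anti-MAFG peak held 12, 8 and 8 fragments in the MAFG-cell replicates and 7, 5 and 5 in the GFP-cell replicates. Cell line, peak number and scaling therefore differ together, and their parts in the number of gained regions cannot be told apart. Of 7 pigment cell genes, 5 carried H3K4me3 within 1000 bp of an end in both lines (MITF, TYR, PMEL, MLANA and SOX10), while TYRP1 and DCT did not in either.

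The sequences that can be read directly are those of the few gained regions that cover a gene start, and they are shown because they hold the letters a small MAF dimer is known to bind. The RefSeq promoter table for GRCh38 gives 300 bases around each start that it lists, 250 before it and 50 after. It lists a start for 79.2% of protein-coding genes, so starts of other genes could not be searched. Gained regions overlapped 13 of its windows, belonging to 12 genes. The motif TGACNNNGC, the core of an antioxidant response element, was searched on both strands. It occurred in 7 of these 13 windows (53.8%), against 23.3% of 219 windows overlapped by regions called in both lines and 13.4% of all 34789 windows. One window held TGACTCAGC (7.69%, against 4.57% of the windows at regions called in both lines and 0.566% of all windows), which is a special case of TGACNNNGC. EHD4 and PLA2G4E-AS1 start head to head and share 1 match, so their windows do not hold separate sites. The window of BAIAP2 held more than 1 match. Each line below gives up to 49 bases on the gene's own strand, 5′ to 3′, with the match in capitals.

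BAIAP2, chr17:81097486-81097534: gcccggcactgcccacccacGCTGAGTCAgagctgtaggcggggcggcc
BAIAP2, chr17:81097520-81097568: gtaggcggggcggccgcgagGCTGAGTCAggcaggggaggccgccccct
EHD4, chr15:41972610-41972658: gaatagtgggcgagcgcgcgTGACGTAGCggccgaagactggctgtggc
ZNF3, chr7:100081872-100081920: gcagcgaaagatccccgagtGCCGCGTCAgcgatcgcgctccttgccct
LOC100287036, chr16:89320280-89320328: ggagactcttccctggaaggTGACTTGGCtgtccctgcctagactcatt
HAO2, chr1:119368651-119368699: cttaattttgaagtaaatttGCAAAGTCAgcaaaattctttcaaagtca

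BAIAP2, which encodes an adaptor protein of the actin cytoskeleton, had the full TGACTCAGC on its opposite strand at both positions, 105 and 71 bases before the start. Both matches lay inside the gained region chr17:81097182-81097839, 181 and 215 bp from its strongest summit. The EHD4 match was 355 bp from the summit of chr15:41972275-41973050, the ZNF3 match 222 bp and the match at HAO2, a hydroxyacid oxidase, 129 bp from theirs. The window of UNKL also held a match, but outside the gained region beside it. The MITF motif TCATGTG was found in 1 of the 13 windows, that of RUFY3 (7.69%, against 2.91% of all windows), again outside the gained region. A match is a string of letters and not a measured site. The other gained regions lie away from the windows listed, which leave out some genes.

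Enrichment at the gained regions is given as the authors' fold enrichment of a peak over its background, a linear ratio. It served to choose the regions through the calls, so it is described and not tested. Over all gained peaks it ran from 3.38 to 24.5, and the median SD of a region's fold between its libraries was 1.05. The region with the best mean rank lay inside AGBL4, a carboxypeptidase that trims glutamates from tubulin, at chr1:48546934-48548359. Its fold was 18.3, 13.5 and 24.5 in replicates 1, 2 and 3, from 60, 34 and 70 fragments at the summit. The 60 fragments carry an exact 95% Poisson interval of 45.8 to 77.2, which covers counting error only. All 3 libraries placed it high, and the third placed it at rank 17 of its 2818 peaks.

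The second-ranked region lay 7908 bp outside the nearest end of HMOX1, the haem-degrading oxygenase and a classic target of NRF2 and BACH1, at chr22:35371214-35373188. Its fold was 16.2, 17.4 and 15.7, the smallest relative spread among the 4 best-ranked regions. A GFP-cell anti-MAFG peak lay 1780 bp away, and HMOX1 also had a region called in both lines within 5000 bp of the gene. The fourth-ranked region was inside PHGDH, the first enzyme of serine synthesis, at chr1:119736896-119737938, with folds of 16.07, 11.04 and 17.03.

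The third-ranked region, inside the calcium channel gene CACNA1A, had folds of 16.9, 11.7 and 16.4 and the nearest GFP-cell peak 234413 bp away. The fifth, nearest to the planar polarity gene PRICKLE1 but 303810 bp from it, had 14.4, 20.4 and 11.1, with summits within 12 bp of each other. The sixth was nearest to OXCT1, which serves the use of ketone bodies, and had the close values 12.5, 13.6 and 12.7. Order among the first ranks is thus not firm, since the libraries disagree by more than the steps between neighbours.

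Regions ranked from 7 to 20 included those inside or nearest to APPBP2, COL5A2 (a chain of type V collagen), SLC24A5, PARN (a poly(A) ribonuclease), BEAN1, SHB, TLN2 (a talin), PPARG, DAPL1, CIMIP1, KCNMA1 (a potassium channel), OGFRL1 and MAP3K20 (a stress-activated kinase). PPARG, a nuclear receptor of lipid metabolism, was called in replicates 1 and 3 with folds of 8.99 and 15.97. SLC24A5, a cation exchanger of the melanosome, was 33524 bp from its region, whose folds were 10.3, 11.7 and 14.3. At the other end of the ranking stood regions at SLC31A2, ATXN1, ZMIZ1, AKIRIN2 and TBC1D2B. The TBC1D2B region, last of the 262, had folds of 4.85 in replicate 1 and 4.63 in replicate 3 from 18 and 16 fragments.

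**Figure D1:**
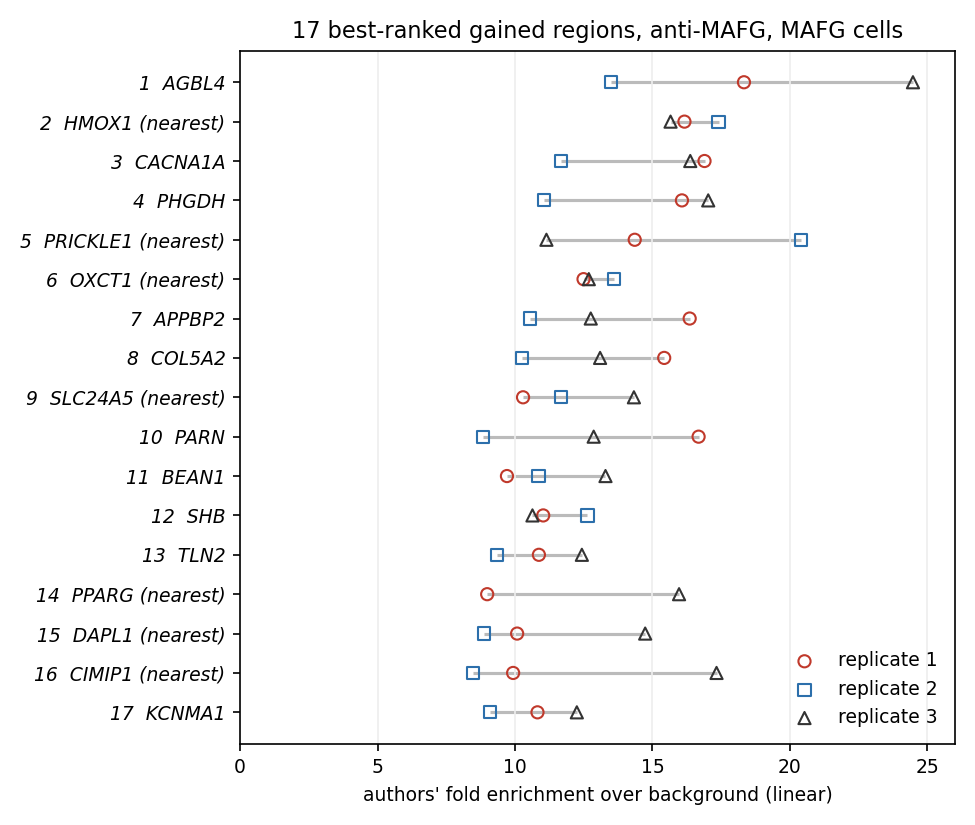
Fold enrichment of anti-MAFG peaks (linear, the authors' values) in each MAFG-cell library for the 17 gained regions with the best mean rank; points are libraries, grey lines join the lowest and highest, and "nearest" marks regions outside the named gene. AGBL4 spans 13.5 to 24.5 while HMOX1 spans 15.7 to 17.4, and the PPARG region has 2 libraries only.

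Within each MAFG-cell library the gained peaks were middling in fold and low in fragments. They made up 210, 202 and 234 peaks of replicates 1, 2 and 3, or 11.4%, 10.9% and 8.30% of each list. Their median fold was 7.35, 7.17 and 7.71, next to 7.46, 7.19 and 8.18 for the peaks at regions called in at least 2 libraries of both lines (1325 regions, named shared from here on). Their median number of fragments was 21.5, 15 and 19, against 29, 21 and 26 at shared regions, so gained peaks had fewer fragments in every library.

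The background under the gained peaks was lower too. Its median, in scaled fragments, was 0.319, 0.339 and 0.258, against 1, 0.881 and 0.516 at shared regions. At 28.6%, 33.2% and 32.5% of gained peaks the background was the lowest value its library used, against 13.5%, 15.3% and 17.3% of shared peaks. Gained and shared peaks thus reached a like fold from different counts. Peaks at regions with 1 MAFG-cell and 0 GFP-cell libraries had median backgrounds of 0.319, 0.339 and 0.206. Their median fragments were 16, 11 and 13. With 2 or 3 MAFG-cell libraries and 1 GFP-cell library the medians were 0.383, 0.339 and 0.284, and 24, 17 and 20 fragments. Lower background and fewer fragments than at shared regions are thus not particular to the gained regions. Any control used in calling is not given in the sources used here, and what a background reflects was not tested.

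**Figure D2:**
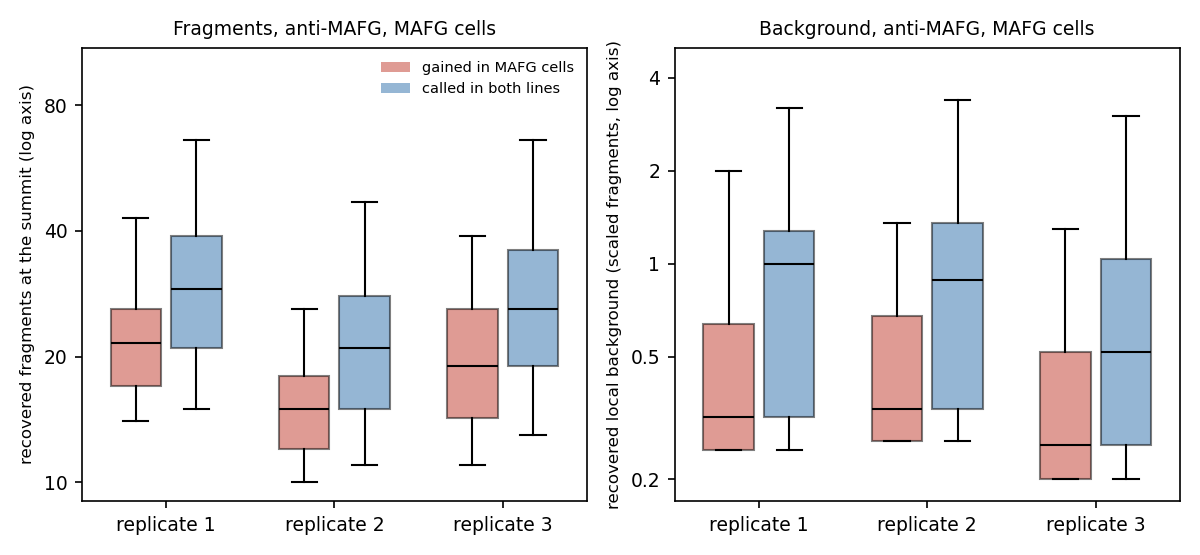
Recovered fragments at the summit (left) and recovered local background in scaled fragments (right), both on log axes, for peaks at gained and shared regions in each MAFG-cell anti-MAFG library; boxes show quartiles with the median as a line, and whiskers the 5th and 95th percentiles. In every library the median of the gained peaks is lower on both axes, for example 15 against 21 fragments in replicate 2.

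In replicates 1 and 2, 11 and 12 of the gained peaks stood in the top 10% of the list by fold (5.24% and 5.94% of them), and in replicate 3 there were 28 (11.97%). Their median rank lay 46.6%, 43.9% and 41.1% of the way down the list. Over the gained regions called in both libraries of a pair, Spearman's rho of the fold was 0.581 between replicates 1 and 2 (148 regions), 0.541 between 1 and 3 (180) and 0.434 between 2 and 3 (172). These describe agreement across regions of the same libraries, which also chose the regions, and were not tested.

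Around the threshold of the rule the values shifted step by step. The median MAFG-cell fold was 8.43 for regions called in 3 of 3 libraries and 6.71 for those called in 2 of 3. Just outside the rule, 454 regions with 1 MAFG-cell and 0 GFP-cell libraries had a median of 6.10. For the 167 regions with 2 or 3 MAFG-cell libraries but 1 GFP-cell library it was 7.47, beside a GFP-cell fold of 5.30. Regions of 2 libraries came from replicates 1 and 2 in 29 cases, 1 and 3 in 61 and 2 and 3 in 53.

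The number of gained regions rests on the length of the GFP-cell lists and on single libraries. It was 148 without MAFG-cell replicate 3, 171 without MAFG-cell replicate 1, and 361 without GFP-cell replicate 1. When every anti-MAFG library was reduced to its 1836 best peaks by the authors' p-value, 1016 regions met the rule and 341 were shared. Of the 262 gained regions, 218 overlapped 1 of those 1016. The cut removed most peaks of the GFP-cell lists, so the 1016 include regions with a GFP-cell anti-MAFG peak in the full lists.

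Width follows from the calls as well and is described only. The gained regions were narrower than the shared ones. Their median width was 768 bp and their range 342 to 2067 bp, against a median of 1495 bp for shared regions, 1007 bp for the 16719 regions called in at least 2 GFP-cell and 0 MAFG-cell libraries, and 751 bp for all merged regions. A merged region widens with the number of libraries that add a peak: the median was 886 bp for 3 libraries and 671 bp for 2. Shared regions also merge GFP-cell peaks, which gained regions lack by the rule. Single MAFG-cell peaks were closer in width. In replicates 1, 2 and 3 their median was 625.5, 616.5 and 569.5 bp at gained and 689.5, 723 and 618 bp at shared regions. The widest lay inside or nearest to UBL3 (2067 bp), HMOX1 (1975 bp), CADPS (1605 bp), TRIM56 (1566 bp) and BEAN1 (1539 bp). Summits of the libraries lay a median of 195 bp apart in regions of 3 libraries and 117 bp apart in those of 2. They were within 100 bp of each other in 42 of 119 and 62 of 143.

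Fewer gained than shared regions lay within 1000 bp of a gene end, and fewer also lay over 100 kb from any. Of the 262, 125 lay inside a protein-coding gene (47.7%, exact 95% binomial interval 41.5% to 53.9%), compared with 55.8% of shared regions and 56.9% of all merged regions. A further 27 lay in a long noncoding RNA gene only, and 110 in neither kind. The gene table gives gene spans and no exons, so exonic and intronic positions are not separated here. The 125 genes that held a region had a median length of 125 kb. In a gene yet over 10000 bp from any gene end lay 94 gained regions. Of regions with 2 or 3 MAFG-cell libraries and 1 GFP-cell library, 50.3% lay inside a protein-coding gene. With 1 MAFG-cell and 0 GFP-cell libraries it was 50.7%, and both values lie in the interval of the gained regions.

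Within 5000 bp of a protein-coding gene end lay 40 gained regions (15.3%, interval 11.1% to 20.2%), compared with 18.6% of shared and 26.4% of all merged regions. The interval of the gained regions includes the value of the shared regions. At 1000 bp the count was 11 (4.20%), next to 11.3% of shared and 16.6% of all merged regions. With 2 or 3 MAFG-cell libraries and 1 GFP-cell library it was 5.39%, and with 1 MAFG-cell and 0 GFP-cell libraries 7.49%. Of 250 gained regions on chromosomes with start sites in the promoter table, 10 were within 1000 bp of one (4.0%), against 11.6% of 1254 shared regions. The median distance to a gene end was 32989.5 bp for gained and 37928 bp for shared regions, and 49 gained regions (18.7%) were over 100 kb from any, compared with 25.4% of shared and 23.8% of all merged regions. The shares over 100 kb were 27.5% with 2 or 3 MAFG-cell libraries and 1 GFP-cell library, and 24.4% with 1 MAFG-cell and 0 GFP-cell libraries. At 10000 bp the shares of gained and shared regions were closer, 23.66% and 24.98%. Distances were taken from the edges of a region, and shared regions were wider.

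**Figure D3:**
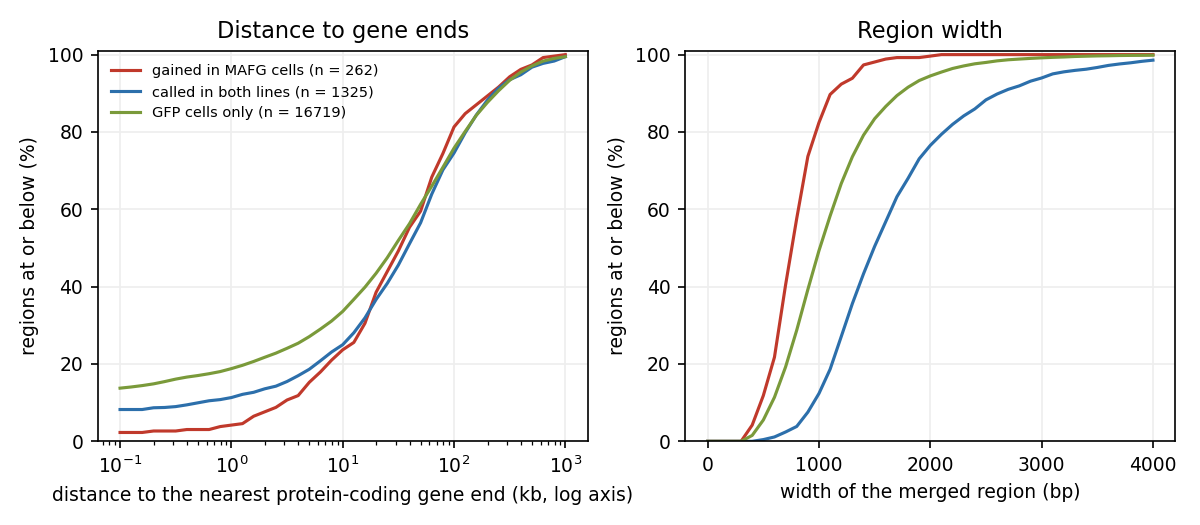
Cumulative percent of regions by distance to the nearest protein-coding gene end (left, kb, log axis) and by width of the merged region (right, bp) for gained, shared and GFP-cell-only regions. At 1 kb the gained regions stand at 4.20% and the GFP-cell-only regions at 18.8%, and the median widths are 768, 1495 and 1007 bp.

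Gained regions occurred on all 23 chromosomes examined, with 32 on chromosome 1. Chromosomes 16, 17 and 19 held 5.73%, 6.49% and 2.67% of them, compared with 1.28%, 2.94% and 0.377% of shared regions. The counts were 15, 17 and 7 gained and 17, 39 and 5 shared regions. Chromosome 3 held 3.82% compared with 10.5%. These chromosomes were not chosen in advance, shares of all merged regions per chromosome are not given here, and none was tested. Genomic copy number was not analysed here. There were 19 neighbouring pairs within 250000 bp. Only BCL2L11, NRP2 and PARN held 2 gained regions inside 1 gene. BCL2L11 encodes the pro-apoptotic protein BIM, and its pair lay 41195 bp apart. NRP2 is a semaphorin and VEGF co-receptor, with a pair 11018 bp apart. The PARN pair lay 13972 bp apart at ranks 10 and 251.

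A nearby GFP-cell signal was common. An anti-MAFG peak of some GFP-cell library lay within 1000 bp of 25 gained regions and within 10000 bp of 110, and the median distance was 13280 bp. The SLC24A5 region had one at 887 bp and the CBR3 region at 742 bp. For these 25 the calls differed between neighbouring stretches of one locus. The other 237 had none within 1000 bp.

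Gene lists were read with the same window, a gained region in the gene or within 5000 bp of an end. Over all 19974 protein-coding genes, 149 had a gained region (0.746%), 734 a shared one (3.67%) and 6451 one called only in GFP cells (32.3%). Of 32 known target genes of cap'n'collar and small MAF dimers, 2 had a gained region, AKR1C3 and FTH1, and 7 had a shared one (ABCC3, HMOX1, NQO1, OSGIN1, SLC7A11, SQSTM1 and TXNRD1). A region called only in GFP cells was present at 9 of the 32, TXNRD1 among them, next to the 32.3% of all protein-coding genes. GCLC, the catalytic subunit of glutathione synthesis, also had a region with 2 or 3 MAFG-cell libraries and 1 GFP-cell library.

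The FTH1 region, near the gene of the ferritin heavy chain that stores iron, was at chr11:61972112-61972694, 4478 bp outside the nearest gene end. Its anti-MAFG fold was 10.9, 5.76 and 8.71 in replicates 1, 2 and 3. The AKR1C3 region, inside the gene of an aldo-keto reductase that reduces steroids and prostaglandins, was at chr10:5071932-5072471 with folds of 8.83, 8.36 and 8.18. Its spread was small, with an SD of 0.336, and its summits lay within 65 bp.

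Of 21 pigment and MITF target genes, 1 had a gained region: TYR, which encodes tyrosinase, the first enzyme of melanin synthesis. The region lay inside the gene at chr11:89248797-89249851, 45908 bp from its nearest end, with folds of 8.77, 7.95 and 5.49. TYR was also among the 11 of 21 genes of this list with a region called only in GFP cells, as were SLC24A5, SOX10 and DCT; over all protein-coding genes that share was 32.3%. None of 9 genes of small MAF proteins and their partners had a gained region, none of 10 AP-1 genes, none of 15 genes of the dedifferentiated melanoma state and none of 5 beta-globin genes. With 0.746% of protein-coding genes holding a gained region, lists of this length are too short for a count of 0 to be read.

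H3K4me3 was rare at gained regions. In MAFG cells 8 of 262 overlapped an H3K4me3 peak (3.05%, exact 95% binomial interval 1.33% to 5.93%), against 19.8% of all merged regions and 15.9% of shared regions. In GFP cells 10 did (3.82%, interval 1.85% to 6.91%), against 24.6% of all merged and 20.5% of shared regions. At regions with 1 MAFG-cell and 0 GFP-cell libraries the H3K4me3 share was 8.59% in either line. With 2 or 3 MAFG-cell libraries and 1 GFP-cell library it was 7.19% in either line. The interval covers the number of regions only, as each line has 1 H3K4me3 library, and no test was made. The share moved with the lists that chose the regions: among the 1016 regions found with equal peak numbers it was 12.01% in MAFG cells, with 16.13% at the matching 341 shared regions. Those 1016 include regions with a GFP-cell anti-MAFG peak in the full lists.

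The 8 marked regions in MAFG cells lay at UNKL, ZNF3, CBR3, LOC124900418, EHD4, BTBD19, ACAP3 and RUFY3, and 6 regions were marked in both lines. ACAP3, which regulates the small GTPase ARF6, had an H3K4me3 peak of fold 117 with GFP and 36.7 with MAFG overexpression. CBR3, a carbonyl reductase, had 26.7 and 18.3, and its gained region ended 81 bp from the gene. RUFY3 and BTBD19 were marked in MAFG cells only, with folds of 6.15 and 3.37. SSU72, BAIAP2, DBF4B and TBC1D2B were marked in GFP cells only. Of the 12 regions marked in either line, 6 were within 1000 bp of a protein-coding gene end.

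Anti-MITF libraries did not enter the rule and gave the one replicated readout at these regions. Their lists held 19828, 20117 and 20102 peaks in GFP-cell replicates 1, 2 and 3, and 2491, 2116 and 2495 in the MAFG-cell replicates. Cell line and list length thus differ together, and their parts in any comparison of the lines, here and below, cannot be told apart. In GFP cells 13, 18 and 13 of the 262 gained regions overlapped an anti-MITF peak of replicates 1, 2 and 3. With MAFG overexpression the numbers were 12, 12 and 15. The mean share was 5.60% ± 1.10 (SD, n = 3) for the GFP line. For the MAFG line it was 4.96% ± 0.661 (SD, n = 3), and the ranges of the lines overlapped. The difference of -0.636 percentage points was within the spread between libraries (two-sided exact permutation test over libraries, p = 0.5, n = 3 per line, smallest possible p 0.1). With equal anti-MAFG peak numbers, the 1016 regions gave means of 33.9% for the GFP line and 14.1% for the MAFG line (p = 0.1 by the same exact test). That set is unlike the 262, as it includes regions with a GFP-cell anti-MAFG peak in the full lists.

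The anti-MITF share was lower at gained than at shared regions. At shared regions the anti-MITF share was 63.8%, 62.7% and 60.9% in the GFP-cell libraries and 21.9%, 19.7% and 21.9% in the MAFG-cell libraries. All 6 libraries had a lower share at gained than at shared regions, by 15.1 to 58.9 percentage points. The mean difference was -36.5 points (two-sided exact sign-flip permutation test over 6 libraries, p = 0.03125, the smallest it can give). That p results whenever all 6 differences share a sign, and the 6 libraries come from both lines. Each line alone gave p = 0.25 in the same exact test, the smallest for n = 3, with -56.9 points for the GFP line and -16.2 for the MAFG line. The lines differed in this by 40.7 points (exact permutation test, p = 0.1, n = 3 per line), again the smallest p possible. The anti-MITF lists of MAFG cells were also the shorter ones, and the part of list length in this difference was not tested.

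Gained regions are narrower than shared ones, and a wide region meets more peaks. Within the 200 bp around the strongest anti-MAFG summit, where width is equal, the mean difference was -31.7 points (exact sign-flip permutation test, p = 0.03125). The absence of a GFP-cell anti-MAFG peak is part of the rule, and the antibodies of one line share the cells. What this contributes to the low anti-MITF share in GFP cells was not tested.

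**Figure D4:**
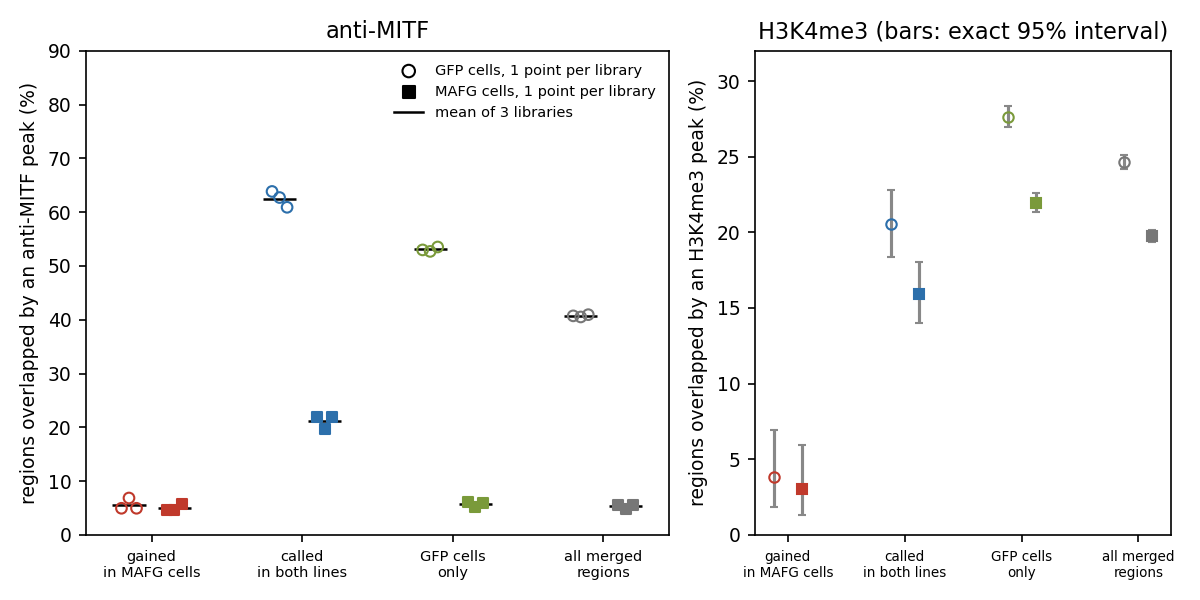
Percent of regions overlapped by an anti-MITF peak (left, 1 point per library, line at the mean of 3) and by an H3K4me3 peak (right, 1 library per line, bars are exact 95% binomial intervals) at gained, shared, GFP-cell-only and all merged anti-MAFG regions. The gained regions lie near 5% for anti-MITF in both lines. Shared regions lie at 62.5% for the GFP line and 21.2% for the MAFG line, whose anti-MITF lists are shorter.

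Counted per region, 12 gained regions had an anti-MITF peak in at least 2 of 3 GFP-cell libraries (4.58%, against 39.8% of all merged regions) and 13 in at least 2 of 3 MAFG-cell libraries (4.96%, against 4.74%). In MAFG cells the share lay near that of all merged regions, but most of those had no MAFG-cell anti-MAFG peak. Such regions numbered 13927, 8173 and 8546, by peaks in 1, 2 and 3 GFP-cell libraries. The MAFG-cell share was 19.2% at shared regions and 8.98% at regions with 2 or 3 MAFG-cell libraries and 1 GFP-cell library. With 1 MAFG-cell and 0 GFP-cell libraries it was 3.52%. In GFP cells the share at gained regions lay under all of these classes (63.3%, 22.2% and 8.59%) and far under all merged regions. Of the 262 regions, 31 had an anti-MITF peak in any of 6 libraries (11.8%, against 55.9%). Neither an anti-MITF nor an H3K4me3 peak of any library was found at 226 gained regions (86.3%), against 39.1% of all merged and 22.9% of shared regions. The same held for 78.4% of the regions with 1 MAFG-cell and 0 GFP-cell libraries. At regions with 2 or 3 MAFG-cell libraries and 1 GFP-cell library the share was 67.7%. A lack of both is thus not particular to the gained regions.

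In both lines, 7 gained regions had anti-MITF peaks in at least 2 libraries (2.67%, against 4.65% of all merged regions), among them those at FTH1, PPCDC, TMCC2, ACAP3, XYLT1 and BAIAP2. At the FTH1 region the anti-MITF fold was 7.15, 10.4 and 12.2 in GFP-cell replicates 1, 2 and 3 and 12.3, 7.50 and 9.49 in the MAFG-cell replicates, so the lines overlapped. At PPCDC, an enzyme of coenzyme A synthesis, the GFP-cell values were 11.5, 8.99 and 10.3 and the MAFG-cell values 10.2, 8.40 and 12.5, which overlap as well. Fold values of separate lists depend on each list's own background, and these were not tested.

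Another 4 regions, at HMOX1, PPARG, SMOX and LOC124900418, had anti-MITF peaks in at least 2 GFP-cell libraries and in 0 MAFG-cell libraries (1.53%, against 31.9% of all merged regions). The HMOX1 region had folds of 3.31 and 6.91 in GFP-cell replicates 1 and 2. The reverse pattern occurred in 4 regions, at AGBL4, DAPL1, ZMYND8 and NBPF1 (1.53%, against 0.0146%). Only 5 of the 34229 merged regions had this reverse pattern, and the fifth was a shared region. The rule asks for MAFG-cell and no GFP-cell anti-MAFG peaks, and the antibodies of one line share the cells. Few merged regions lacked a GFP-cell anti-MAFG peak, and what the rule contributes to these shares was not tested. The DAPL1 region, 13065 bp upstream of a gene named for its likeness to a death-associated protein, had folds of 6.19, 4.91 and 6.51 in the MAFG-cell libraries. AGBL4 had 4.79 and 8.40 in replicates 2 and 3. For 1 region, the smallest p that an exact test of 3 against 3 libraries allows is 0.1, so none was tested.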

How the data were processed

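Per the submitters' processing notes, the tools were cutadapt 1.8.1, Bowtie2 2.4.1, MACS2 2.1.1.20160309, ChIPseeker 1.32.1 and deepTools, with the builds GRCh38 and hg38; their settings and any control used in calling are not given in the sources used here. Peaks were deposited per library as lists whose values are the authors' fold enrichment (a linear ratio), −log10 p and −log10 q, and a score. Peaks of the 6 anti-MAFG lists were merged where they overlapped by at least 1 bp, and other lists were laid over the result in the same way. Distances and gene names used the RefSeq table of 19974 protein-coding genes. It fits the files' build: 71.6% of MAFG-cell H3K4me3 summits lay within 1000 bp of a RefSeq start site, and 2.94% after a shift of 100000 bp.

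Read depth is not listed. Fragments and background were recovered from each peak's fold, taken as pileup plus 1 over background plus 1, together with its p, taken as the tail of a Poisson distribution above the pileup, with 1 scale per library, a formula inferred here and not stated by the authors. Shares were compared by exact permutation over libraries in Python 3.11.15, numpy 2.4.6 and scipy 1.17.1. Merging, calling and recovery were checked on simulated data. The members and gene lists were chosen with earlier results of these data known. Regions named are the 20 best and 5 poorest by mean rank of fold, the 5 widest, those with H3K4me3 in MAFG cells or anti-MITF in at least 2 libraries of a line, those at listed genes and genes holding 2 or more. Some regions that this rule names are not reported here. Others named (the 4 with H3K4me3 in GFP cells only, and promoter genes) were added after their values were seen. Alternatives changed the calls needed, the q threshold, distance, overlap, windows, peak number and single libraries. The 2 IgG samples were not analysed here.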

Additional observations from a re-analysis of the deposited data

How the results depend on the processing

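The number of gained regions was 119 when all 3 MAFG-cell libraries had to agree, 165 with MAFG-cell peaks of −log10 q of at least 5, and 1016 with equal peak numbers; leaving out single anti-MAFG libraries gave 148 to 361. The H3K4me3 share in MAFG cells was 1.75% to 4.71% without single libraries, 5.34% with H3K4me3 peaks within 1000 bp counted, and 12.01% with equal peak numbers. Near gene ends lay 4.20% within 1000 bp and 23.7% within 10000 bp, and 14.04% to 16.89% within 5000 bp without single libraries.

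The anti-MITF difference between the lines never passed 0.05 in a design whose smallest p is 0.1. It turned to 0.840 points for regions of 3 libraries, was 0 with anti-MITF peaks of −log10 q of at least 5, and ranged from -4.62 to 0.676 without single libraries; it was -19.8 points with equal peak numbers. The difference between gained and shared regions kept its sign in all 18 settings. Leaving out 1 anti-MITF library gave p = 0.0625 in the exact test over 5 libraries, the smallest it can give, and values over all left-out libraries ran from -40.8 to -32.1. It was -30.7 with the stricter anti-MITF peaks and -34.9 with equal peak numbers, where all p stayed at 0.03125 (exact sign-flip test).

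With the replicate number as a block, the difference between the lines was -0.636 points (exact sign-flip permutation test, p = 0.75, n = 3 pairs). Deviations of same-numbered libraries had correlations from -0.0056 to 0.00096 over 34229 regions. Only 2878 of these regions had an anti-MITF peak in any MAFG-cell library. Such values therefore cannot decide whether the numbers pair the samples. The equal peak number was planned for the count and added for the other results after the data were seen. Regions gained under it include some with a GFP-cell anti-MAFG peak in the full lists. The planned share of summit windows with TGACNNNGC was not run, as no genome sequence was used here. Regions of few fragments limit the calls: gained peaks held as few as 9 fragments.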
